A study of Mus musculus with 6 samples.

Results

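Dopamine and adenosine signalling in striatum was followed through 9 genes: the dopamine receptors Drd1 and Drd2, the adenosine receptor Adora2a, the neuropeptide precursors Penk and Tac1, and the signalling genes Ppp1r1b, Pde10a, Rgs9 and Adcy5. They were taken by symbol from the 32285 genes counted, and all 9 were found and passed the filter on low counts in every compartment tested. Counts came from Visium slides, on which each spot of a coronal section captures RNA from a small area holding several cells. The 6 sections came from male C57BL/6J mice, for which the labels name no engineered allele and no treatment. The groups were young (6 months), middle (18 months) and old (21 months), each with 2 males and 1 section of 16 µm per animal, cut at about Bregma -1.655 mm, where the plane crosses the caudal striatum. Young 1, young 2, middle 1 and old 1 lay on slide 1, and middle 2 and old 2 on slide 2, so that slide 2 holds no young section and slide and age are partly confounded.

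Principal neurons of striatum fall into a pair of output classes. Neurons of the direct pathway carry the D1 receptor (Drd1), which raises cAMP, and make substance P from Tac1. Neurons of the indirect pathway carry the D2 receptor (Drd2), which lowers cAMP, together with an adenosine receptor (Adora2a), which raises it, and make enkephalin from Penk. Both classes share the machinery behind these receptors: adenylyl cyclase 5 (Adcy5) makes cAMP, phosphodiesterase 10A (Pde10a) breaks it down, DARPP-32 (Ppp1r1b) is the phosphatase inhibitor that protein kinase A switches on, and RGS9 (Rgs9) shortens the signal of inhibitory G proteins.

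By the GENCODE M21 annotation of GRCm38, the dopamine receptors lie on separate chromosomes, Drd1 (ENSMUSG00000021478) at chr13:54051183-54055705, minus strand, and Drd2 (ENSMUSG00000032259) at chr9:49340627-49408177, plus strand. The adenosine receptor is Adora2a (ENSMUSG00000020178) at chr10:75316877-75334784, plus strand. The peptide precursors are Penk (ENSMUSG00000045573) at chr4:4133531-4138819, minus strand, and Tac1 (ENSMUSG00000061762) at chr6:7554879-7565834, plus strand. The shared genes are Ppp1r1b (ENSMUSG00000061718) at chr11:98348404-98357796, plus strand; Rgs9 (ENSMUSG00000020599) at chr11:109225355-109298129, minus strand; Pde10a (ENSMUSG00000023868) at chr17:8525372-8986648, plus strand; and Adcy5 (ENSMUSG00000022840) at chr16:35154877-35305738, plus strand. Counts are of whole genes and do not separate exons or isoforms.

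Striatum was defined without these genes. Spots were grouped by the transcripts of other genes, and the group whose leading genes included Gpr6, Lrrc10b, Syndig1l and Gng7 was taken as striatum, with 15 of its 50 leading genes and 7 of the first 10 on a list of 20 striatal markers. It held 1090 of 16741 spots: 225 in young 1, 147 in young 2, 178 in middle 1, 211 in middle 2, 161 in old 1 and 168 in old 2. Those spots were 8.74% and 5.24% of the young sections, 6.51% and 7.54% of the middle sections and 5.42% and 5.88% of the old sections. The young sections enclosed all others, and both old sections lay below both middle ones. The two-sided exact permutation test over ages gave p = 0.6 and cannot go below 0.0667 in this design, so it could not have called a difference. The median depth of a striatal spot ran from 19622 UMIs (unique molecules counted) in old 1 to 30022 in young 1, and section totals from 60938938 to 77557934 UMIs. In the 3 pairs of same-age sections, counts differed far more than counting error allows (chi-square per degree of freedom between 24.0 and 45.6). Summed striatal markers differed most between the young sections, at 5020.5 CPM (UMIs of a gene per 1000000 UMIs of the summed spots) in the striatal spots of young 1 and 3748 in young 2. Thalamic markers stayed between 47.9 and 63.5 CPM and cortical excitatory markers between 213 and 267 CPM in striatal spots. Outside them they lay between 279 and 479 CPM and between 1126 and 1292 CPM.

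All 9 genes were higher in striatal than in other spots in all 6 sections, and for each gene the striatum was the named region with the highest mean CPM, ahead of the next region by more than the summed SDs. Because the spots were grouped by transcripts that themselves mark striatum, this contrast is described without a test. Adora2a was the most restricted of the 9. Striatal spots held 82.2% of its UMIs in young 1 (95% exact interval 80.3 to 84.0), 76.9% in young 2 (74.1 to 79.5), 80.6% in middle 1 (78.2 to 82.9), 81.8% in middle 2 (79.9 to 83.7), 86.6% in old 1 (84.0 to 88.9) and 81.1% in old 2 (78.5 to 83.5). These intervals cover counting error only. Its level was 49.5-fold to 139.6-fold higher inside than outside, and the highest ratio, in old 1, came with the lowest level outside (1.59 CPM). No other group of spots exceeded a mean of 11.02 CPM.

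The other receptors were less restricted. Drd2 had 63.5% of its UMIs over the 6 sections in striatal spots and was 21.1-fold to 29.4-fold higher there. Drd1 had 51.8% and was 14.1-fold to 16.8-fold higher. Of the peptide precursors, Penk had 60.2% of its UMIs in striatal spots and Tac1 42.2%. Outside, Tac1 ran from 34.1 CPM in young 2 to 66.9 CPM in old 2, and its inside-to-outside ratio ran from 6.69 in old 2 to 16.8 in young 2. Among the shared signalling genes the share in striatal spots was, in decreasing order, Rgs9 (65.3%), Ppp1r1b (53.7%), Pde10a (50.3%) and Adcy5 (32.4%). Adcy5 had the broadest distribution, with 60.2 to 69.6 CPM outside striatum and 366 to 558 CPM inside.

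**Figure D1:**
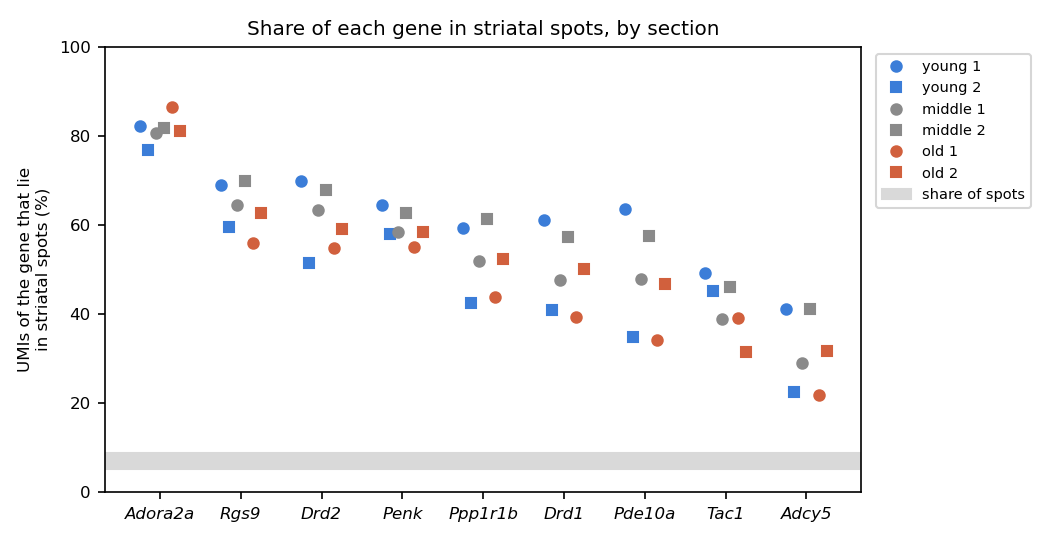
Percent of each gene's UMIs that lie in striatal spots, by section (circles are replicate 1, squares replicate 2), with the share of spots that are striatal as a grey band from 5.24% to 8.74%. Every point lies above the band; Adora2a is highest, between 76.9% and 86.6%, and Adcy5 reaches down to 21.9%.

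The groups of spots with the next-highest level differed between genes. Drd1 reached 39.2 ± 6.0 CPM (SD, n = 6 sections) in 524 cortical spots led by Ccn2, Cplx3, Nxph3 and Nr4a2, genes of the deepest cortical layer, where Adora2a also had its second-highest mean, at 11.02 ± 4.61 CPM. Drd2 stood at 12.2 ± 3.0 CPM in hypothalamic and 11.9 ± 1.6 CPM in thalamic spots, and these did not differ beyond their SDs. Penk was at 444 ± 87.1 CPM in 300 spots with Igfn1, Lmo3 and Tafa2 among their leading genes and at 393 ± 44.7 CPM in 873 spots led by Baiap3, Nts, Hap1 and Gpr101. The latter spots, which took no region name because hypothalamic and amygdalar markers were both among their leading genes, also had the second-highest Tac1, at 196 ± 63.2 CPM. Tac1 followed with 176 ± 74.4 CPM in hypothalamic spots and 171 ± 49.0 CPM in 224 spots led by Gm5741, Gng8, Gpr151 and Chrna3, and these 3 groups did not differ beyond their SDs.

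Ppp1r1b had its second site at the ventricle. In 307 spots led by Ttr, Ecrg4, Kl and Calml4, genes of the choroid plexus, it reached 280.4 ± 22.8 CPM. The lowest section was at 249 and the highest at 307 CPM. These spots took the name choroid plexus and ventricle, which were not separated. For none of the other 8 genes were these spots the second site: Drd1 was at 6.35 ± 3.90 CPM there, Adora2a at 6.16 ± 4.21 CPM and Pde10a at 20.9 ± 8.84 CPM. For 4 of the 9 genes the lowest mean among the named regions was in spots of reticular thalamus, pallidum and zona incerta, with 1.25 CPM of Drd1, 0.70 CPM of Drd2, 2.00 CPM of Rgs9 and 2.86 CPM of Tac1.

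**Figure D2:**
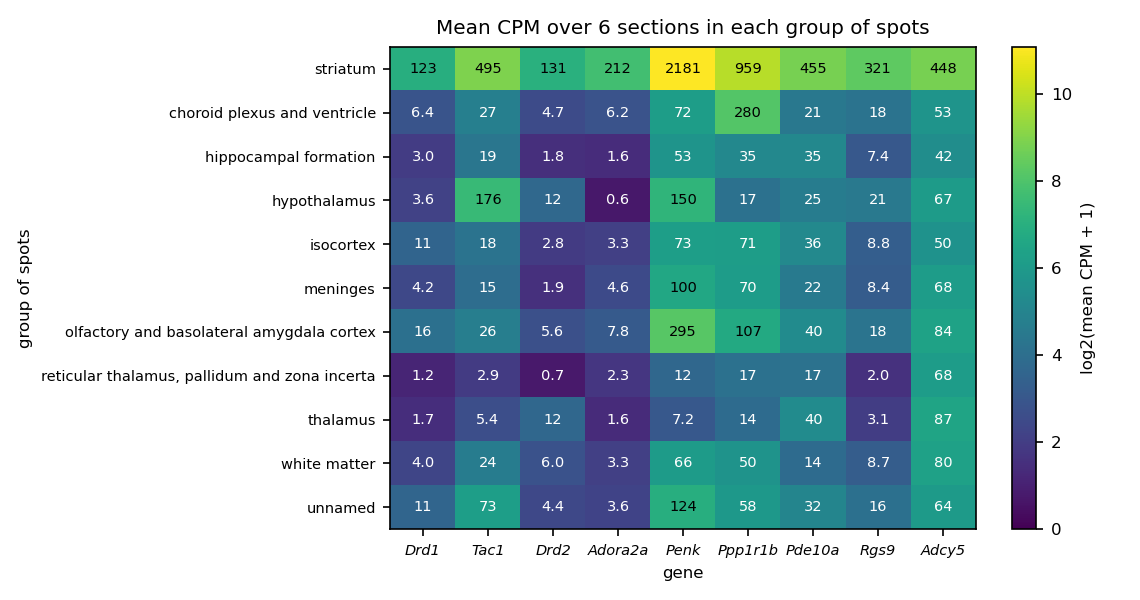
Mean CPM over the 6 sections (numbers) for each gene in each group of spots, coloured by log2(mean CPM + 1). The striatal row is highest in all 9 columns. Among the other rows, Ppp1r1b stands out in choroid plexus and ventricle spots (280.4 CPM). So do Tac1 in hypothalamic spots (176 CPM) and Penk in olfactory and basolateral amygdala cortex (295 CPM).

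Non-member genes whose levels followed a member's were found by Pearson correlation of log2(CPM + 1) over 60 sums (10 named regions in 6 sections), among 9772 genes. Since sums of 1 region share their cells and sums of 1 section share a library, these values describe likeness only. Pde10a was matched most closely by Pde1b (r = 0.94), a calmodulin-dependent phosphodiesterase. Penk was matched by Asic4 (0.92) and Tac1 by Pdyn (0.91), the precursor of dynorphin. Pde10a was next followed by Ppp1r2 (0.90) and Osbpl8 (0.89), Penk by Pdyn (0.89) and Gpr83 (0.88), and Tac1 by Rpl31 (0.89) and Htr1b (0.84). Of the receptors, Drd1 was followed by Asic4 (0.86) and Arpp19 (0.84), Drd2 by Klhl13 (0.82), Rpl31 (0.79) and Syndig1l (0.79), and Adora2a by Gng7 (0.83) and Zswim6 (0.82). Of the other shared genes, Ppp1r1b was followed by Dmkn (0.87), Cbr3 (0.83) and Mettl9 (0.83), Rgs9 by Pdyn (0.89), Rpl31 (0.83) and Asic4 (0.82), and Adcy5 by Syndig1l (0.86), Tbc1d8 (0.84) and Pde1b (0.84). Gng7, Pde1b and Syndig1l are among the markers that named the striatal spots.

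Within striatum, direct and indirect pathway genes varied along different axes from spot to spot. Pearson correlations were computed over the striatal spots of each section, on log-scaled counts per spot, and are given as descriptions because the spots of a section share a library. Drd1 and Tac1, the direct pathway pair, correlated at 0.49 in young 1, 0.60 in young 2, 0.57 in middle 1, 0.54 in middle 2, 0.43 in old 1 and 0.56 in old 2. Adora2a and Penk, from the indirect pathway, correlated at 0.57 to 0.75, Drd2 and Adora2a at 0.47 to 0.63 and Drd2 and Penk at 0.37 to 0.63. Across pathways the values were near or below 0: Tac1 and Penk ranged from -0.28 to -0.05, Drd1 and Penk from -0.29 to 0.04, and Drd1 and Drd2 from 0.03 to 0.21. Over 4 pairs within a pathway and 6 sections, the 24 values ran from 0.37 to 0.75. The 36 values of the 6 pairs across pathways ran from -0.29 to 0.21, so that the ranges did not overlap. The separation held at each age, with a section mean of 0.49 to 0.63 within and -0.14 to 0.12 across pathways.

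How striatal a spot was, and how deeply it was sequenced, enters these values, since every member correlated with the share of striatal markers in a spot (0.35 to 0.72 for the 5 pathway genes and 0.56 to 0.85 for the 4 shared genes). With marker share and depth taken out by regression, an analysis added after the data were seen, the 24 values within a pathway ran from 0.18 to 0.65 and the 36 across from -0.59 to -0.08. The shared signalling genes correlated with genes of both pathways, less with Penk than with the other 4. Ppp1r1b, Pde10a, Rgs9 and Adcy5 correlated with each other at 0.45 to 0.83 and with the 5 pathway genes at 0.16 to 0.61. Ppp1r1b correlated with Drd1 at 0.40 to 0.54 and with Drd2 at 0.37 to 0.58, so that its ranges for the receptors overlapped. With the peptide genes its mean r was 0.51 for Tac1 (0.41 to 0.59) and 0.28 for Penk (0.16 to 0.50). For Pde10a, Rgs9 and Adcy5 the mean r was 0.24 to 0.30 with Penk, 0.36 to 0.47 with Drd1 and 0.41 to 0.48 with Tac1.

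**Figure D3:**
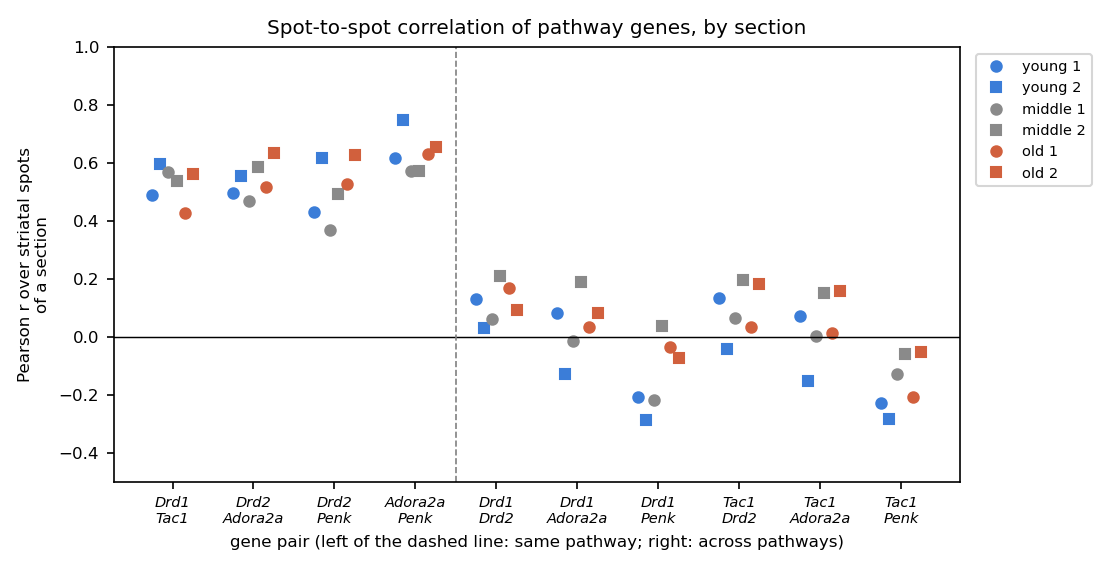
Pearson r over the striatal spots of each section for each pair of pathway genes (circles are replicate 1, squares replicate 2; 147 to 225 spots per section). The 4 pairs within a pathway lie between 0.37 and 0.75, and the 6 pairs across pathways between -0.29 and 0.21.

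Of the 11 genes listed as companions of a pathway, some correlated with the peptide gene of their list and others did not. Pdyn, which direct pathway neurons make, correlated with Tac1 at 0.17 to 0.50 and with Penk at -0.30 to -0.02. Slc35d3, listed with the direct pathway, correlated with Tac1 at 0.24 to 0.53 and with Penk at -0.15 to 0.03. Gpr6, an orphan receptor of indirect pathway neurons, correlated with Penk at 0.35 to 0.49 and with Tac1 at 0.01 to 0.17. Sp9, a transcription factor needed for indirect pathway neurons, correlated with Penk at 0.17 to 0.27 and with Tac1 at -0.37 to -0.09. At lower counts, Isl1 of the direct list correlated with Tac1 at 0.10 to 0.43 and with Penk at -0.34 to 0.05. Upb1 of the indirect list correlated with Penk at 0.08 to 0.28 and with Tac1 at -0.05 to 0.02, and Plxdc1, also of the indirect list, with Penk at 0.04 to 0.28 and with Tac1 at -0.18 to 0.13. Sfxn1, of the direct list, took no side although it averaged 1.21 UMIs per striatal spot, more than the 0.89 of Sp9: its mean r was 0.09 with Tac1, 0.08 with Drd1, 0.09 with Adora2a and 0.05 with Penk. Eya1, of the direct list, had a mean r of -0.06 with Tac1 and 0.03 with Penk at 0.117 UMIs per spot. Chrm4 and Gpr52 averaged 0.012 and 0.025 UMIs per striatal spot, too few to place.

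The upstream sequences of Drd1, Tac1 and Drd2 are shown because the first pair varied together from spot to spot and neither followed Drd2. RefSeq promoters (GRCm38.p6) were matched for 6 of the 9 genes; Penk, Adora2a and Ppp1r1b are named only. Printed are the 250 bases before the annotated start, 5′ to 3′ on the gene's strand, for Drd1 (first of its entries, chr13:54055659-54055908, minus strand), Tac1 (chr6:7554811-7555060, plus strand) and Drd2 (chr9:49340153-49340402, plus strand). Capitals mark TGACG or its reverse complement CGTCA, the core of the cAMP response element.
Drd1: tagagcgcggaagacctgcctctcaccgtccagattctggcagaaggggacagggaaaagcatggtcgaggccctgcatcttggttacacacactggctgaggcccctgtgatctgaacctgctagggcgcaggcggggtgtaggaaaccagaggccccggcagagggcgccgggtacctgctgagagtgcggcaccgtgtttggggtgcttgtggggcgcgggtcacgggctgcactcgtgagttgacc
Tac1: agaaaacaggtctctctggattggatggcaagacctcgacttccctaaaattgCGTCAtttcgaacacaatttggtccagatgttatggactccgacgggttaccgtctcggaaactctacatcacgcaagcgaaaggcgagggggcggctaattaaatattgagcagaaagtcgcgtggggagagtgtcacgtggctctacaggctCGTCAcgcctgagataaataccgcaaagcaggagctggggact
Drd2: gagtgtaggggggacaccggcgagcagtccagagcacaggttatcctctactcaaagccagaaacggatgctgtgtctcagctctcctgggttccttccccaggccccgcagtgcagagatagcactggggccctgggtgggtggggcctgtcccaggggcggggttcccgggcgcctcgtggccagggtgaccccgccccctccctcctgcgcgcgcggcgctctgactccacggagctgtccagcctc
The start sites used here are those of RefSeq and differ from the GENCODE starts given above. The GENCODE start of Tac1 (7554879) lies between the 2 marked sites of its printed window. That of Drd1 (54055705) also lies inside its window. Only Tac1 held the core, starting 197 and 43 bases before its RefSeq start, among the 8 entries of the 6 matched genes. Of 32851 RefSeq promoter windows of the same length, 17.8% held it on either strand, and 1.55% held the full TGACGTCA, which none of the 8 entries did. GC content of the printed windows was 64.0% for Drd1, 51.2% for Tac1 and 68.8% for Drd2. The letters describe these windows and say nothing of what binds there.

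Receptor genes of both pathways were often found in the same spot, which holds several cells. After thinning each spot to 10000 UMIs, 49.3% (95% exact interval 40.7 to 57.9) of striatal spots in young 2 to 72.6% (66.3 to 78.4) in young 1 had a Drd1 UMI. Drd2 was found in 47.2% (38.8 to 55.7) of those in old 1 to 76.8% (70.5 to 82.4) in middle 2. Both were found in 27.9% (20.6 to 36.1) in young 2 to 55.6% (48.5 to 62.4) in middle 2. Without thinning, these shares were 70.2% to 91.1% for Drd1, 62.7% to 91.9% for Drd2 and 44.1% to 84.0% for both. Thinning left out 2 to 19 spots per section whose depth was lower. The median depth of those kept was 20552 to 30142 UMIs before thinning. In thalamic spots, where the mean Drd1 level was 1.74 CPM, 0.258% to 3.91% had a Drd1 UMI after thinning. The median depth of the thalamic spots kept was 16565 to 24714 UMIs before thinning. Drd2 was found in 8.06% to 12.1% of thalamic spots, Tac1 in 3.43% to 9.54% and Penk in 3.06% to 7.83%. Drd2 was above Drd1 in each section, but in young 1 their 95% exact intervals overlapped (5.84 to 12.9 and 1.97 to 6.90).

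A finer grouping (Leiden resolution 1.2 in place of 0.8), described after the data were seen, divided most of the striatal spots into 832 with Lrrc10b and Gpr6 among their leading genes, 200 led by Wfs1, Cyp26b1, Nts and Pdyn, and 40 led by Slc10a4 and Slc5a7, genes of cholinergic neurons. The 200 spots led by Wfs1 belong to a group that did not meet the naming rule for striatum at this resolution: none of its first 10 leading genes was a striatal marker, and its first 50 held 6 striatal markers and 4 of central and medial amygdala. The 9 genes did not differ alike between these spots and the 832. Drd1 was at 43.7 ± 6.9 CPM there against 148 ± 24.9 CPM in the 832 spots, Drd2 at 56.4 ± 20.3 against 156 ± 29.7, and Pde10a at 114 ± 33.0 against 569 ± 100.4. Rgs9 was at 92.0 ± 22.5 against 401 ± 48.3 CPM, Tac1 at 225 ± 35.8 against 587 ± 90.6 and Ppp1r1b at 414 ± 22.2 against 1141 ± 140.2. Penk, in contrast, was at 1986 ± 399 against 2332 ± 289 CPM, within its SDs. Adora2a was at 127 ± 34.4 against 244 ± 19.8 CPM and Adcy5 at 233 ± 21.3 against 521 ± 66.8 CPM. These spots were 12.9% and 27.9% of striatal spots in young 1 and young 2, 17.4% and 12.3% in middle 1 and middle 2, and 21.1% and 23.2% in old 1 and old 2.

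Whether the genes differ with age was asked next. Of the direct pathway genes, Drd1 was at 163 CPM in the striatal spots of young 1, 91.5 in young 2, 125 in middle 1, 145 in middle 2, 101 in old 1 and 112 in old 2. The young sections were the highest and the lowest of the 6 and enclosed both old ones. Tac1 was at 481 and 572 CPM in young 1 and young 2, 446 and 544 in middle 1 and middle 2, and 476 and 448 in old 1 and old 2. Its lowest young section (481 CPM) and its highest old one (476 CPM) were close. How many of all genes separate young from old sections was not counted. Of the indirect pathway genes, Drd2 was at 155 CPM in young 1 and 90.1 in young 2, at 139 and 177 in middle 1 and middle 2, and at 98.1 and 128 in old 1 and old 2. Like Drd1, it differed more between the young animals than between ages. Adora2a stayed within 199 to 224 CPM (215 and 201 young, 214 and 224 middle, 222 and 199 old) and Penk within 2017 to 2284 CPM (2017 and 2284 young, 2055 and 2278 middle, 2195 and 2259.8 old). In bulk sums over spots, fewer neurons of a class and less RNA per neuron cannot be told apart.

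Of the shared signalling genes, Ppp1r1b was at 989.7 and 786 CPM in young, 949 and 1224 in middle and 839 and 966 in old sections. Pde10a was at 596 and 335 CPM in young, 502 and 560.0 in middle and 340.3 and 399 in old sections. Both had young 2 among the 2 lowest sections and middle 2 among the 2 highest. Rgs9 was at 352 and 251 CPM in young, 325 and 426 in middle and 268 and 302 in old sections. Adcy5 was at 488 and 384 CPM in young, 444 and 558 in middle and 366 and 447 in old sections. The ranges of young and old overlapped for all 4.

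**Figure D4:**
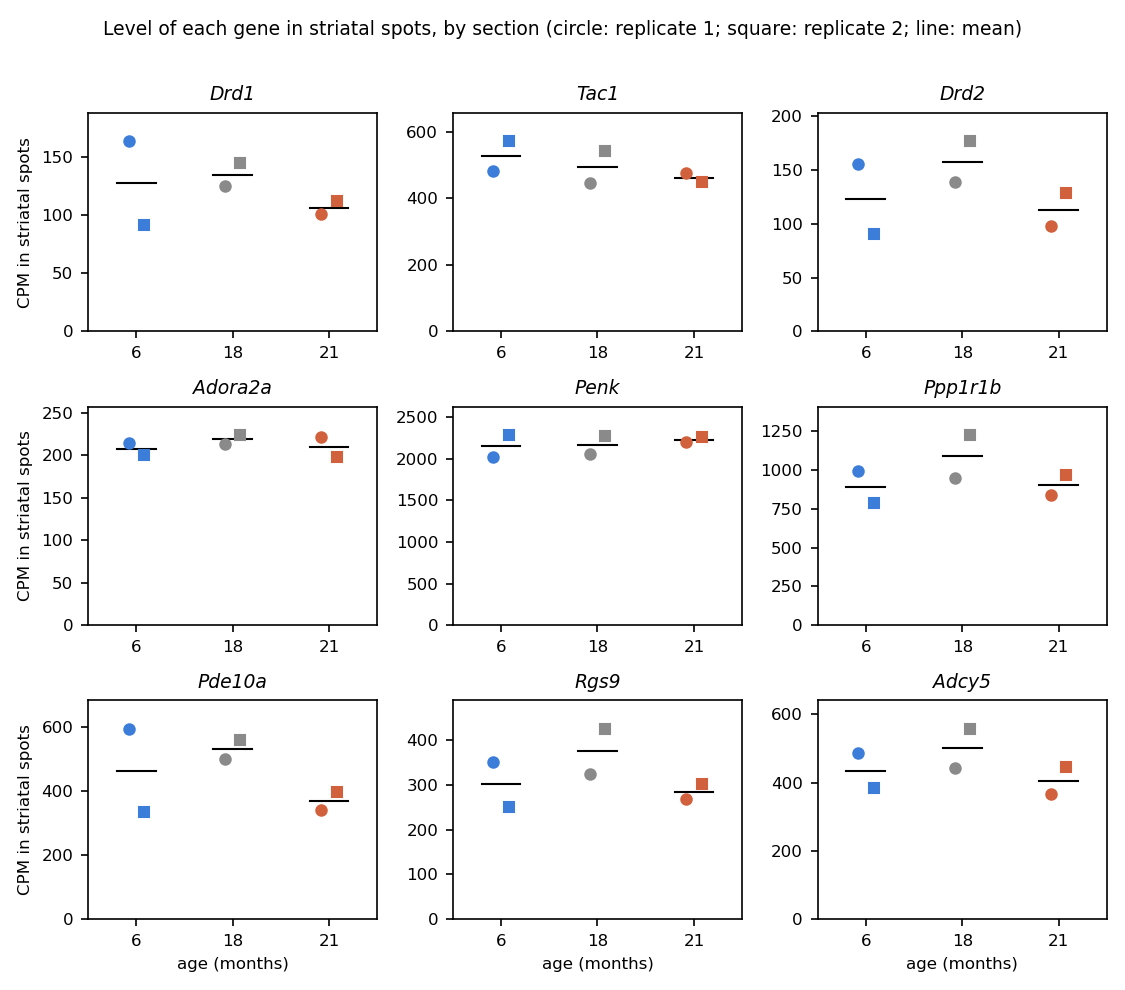
CPM of each gene in striatal spots (vertical axis from 0) by age in months; circles are replicate 1, squares replicate 2 and lines the mean of 2 sections. Drd1, Drd2, Pde10a and Rgs9 differ widely between the young sections (163 and 91.5 CPM for Drd1), while Adora2a stays within 199 to 224 CPM.

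No member was called in striatal spots at any age contrast by edgeR's quasi-likelihood test with Benjamini-Hochberg adjustment over 12740 genes. Over all genes, 0.0942% were called for old against young, 0.0628% for middle against young and 0 for old against middle (588 genes had an unadjusted p under 0.05 there), so a count of 0 among 9 genes says little about them. For old against young, Tac1 had a log2 fold change of -0.25 ± 0.10 (SE, 95% interval -0.45 to -0.04, adjusted p = 0.505 by the same edgeR test). Penk was at -0.01 ± 0.09 (-0.21 to 0.19) and Adora2a at -0.05 ± 0.10 (-0.26 to 0.15). These intervals hold for this fit and this definition of striatum only. Over the alternative settings given at the end, Adora2a ran from -0.15 to 0.16 and Penk from -0.05 to 0.13. Drd1 was at -0.37 ± 0.37 (-1.46 to 0.73), Drd2 at -0.21 ± 0.39 (-1.37 to 0.94) and Pde10a at -0.42 ± 0.37 (-1.51 to 0.68). For these 3 genes the intervals spanned more than 2 log2 units. Ppp1r1b was at -0.05 ± 0.17, Rgs9 at -0.16 ± 0.24 and Adcy5 at -0.17 ± 0.19. All 9 values were below 0 with TMM factors, with a median of -0.17 (over all genes tested -0.003), but with plain CPM 3 were above 0 (Adora2a 0.02, Penk 0.05, Ppp1r1b 0.02). For middle against young 8 of 9 were above 0 (-0.08 to 0.33) and for old against middle 9 of 9 below 0 (-0.59 to -0.03); each contrast shares a group with the others.

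A single young section decided several of these values. Without young 2, Drd1 (log2 fold change -0.74, adjusted p = 4.97e-05) and Pde10a (-0.81, adjusted p = 1.23e-05) were called lower in old than in young striatal spots by the same edgeR test, and the number of genes called over all genes rose from 12 to 389. Without young 1, the same 2 genes were at 0.21 and 0.14 and not called, with 26 genes called in all. For middle against young, leaving out young 1 called Drd1 (0.62), Drd2 (0.87), Ppp1r1b (0.53), Pde10a (0.73) and Rgs9 (0.64) higher in middle, with 301 genes called in all, and leaving out young 2 called none of the 9, with 25 in all. For old against middle, Drd1 (-0.41), Pde10a (-0.59) and Rgs9 (-0.46) were called lower with either young section left out. No young section enters that contrast, and the full fit gave the same rounded values. What changed was the estimate of the spread, which all sections share. A group left with 1 section is assumed to vary like the others. In the fit with slide as a block, which compares ages within a slide, none of the 9 was called, and the old against young values ran from -0.51 to -0.02.

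The same sections were high and low for most of the genes. Drd1, Drd2, Ppp1r1b, Pde10a, Rgs9 and Adcy5 all had young 1 and middle 2 as the 2 highest sections and young 2 and old 1 as the 2 lowest, with a highest-to-lowest ratio of 1.53 (Adcy5) to 1.96 (Drd2). Adora2a (1.13), Penk (1.13) and Tac1 (1.28) did not follow that order. Among 3365 genes with at least 50 CPM in striatal spots the median ratio was 1.23 and the 90th percentile 1.44. The summed 20 striatal markers had the same 2 highest and 2 lowest sections, from 3748 CPM in young 2 to 5500.5 CPM in middle 2. The share of striatal spots led by Wfs1 was highest in young 2 (27.9%) and lowest in middle 2 (12.3%) and young 1 (12.9%), and the share of spots that are striatal was highest in young 1 and lowest in young 2. Mitochondrially encoded transcripts in striatal spots ran from 165108 CPM in old 1 to 216441 CPM in young 1. The part of each of these in the difference between sections was not tested. In the 832 spots of the finer grouping, Adora2a was at 234 and 212 CPM in young and 269 and 259 CPM in old sections. Tac1 was there at 528 and 755 CPM in young and 600 and 529 CPM in old sections. How many of all genes separate young from old in those spots was not counted. Within the 832 spots, which leave out those led by Wfs1, Drd1 ran from 119 CPM in young 2 to 186 in young 1. The highest-to-lowest ratio was 1.56 there against 1.79 in all striatal spots. For Drd2 (118 to 194 CPM) it was 1.65 against 1.96, and for Pde10a (448 to 695 CPM) 1.55 against 1.78. For Rgs9 (356 to 488 CPM) it was 1.37 against 1.70, for Ppp1r1b 1.38 against 1.56 and for Adcy5 1.44 against 1.53. The ratio was larger in the 832 spots for Adora2a (1.27 against 1.13), Penk (1.36 against 1.13) and Tac1 (1.47 against 1.28).

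Some glial genes rose with age in the same spots. Gfap, of astrocytes, was called higher in old than in young striatal spots (log2 fold change 1.305 ± 0.14, adjusted p = 2.60e-04 by edgeR's quasi-likelihood test), as were Tyrobp (0.59 ± 0.10, adjusted p = 0.0287) and Trem2 (0.81 ± 0.14, adjusted p = 0.0347), microglial genes. These were 1 of 8 astrocyte markers and 2 of 8 microglia markers on the lists. Of the astrocyte markers 3 had values above 0 and 5 below, with a median of -0.01. Their sum in striatal spots was 2301 to 2673 CPM over all sections. Of the microglia markers 7 had values above 0 and 1 below, with a median of 0.46. Summed microglia markers in striatal spots were 399 and 526 CPM in young, 520.1 and 546 in middle and 584 and 692 in old sections, and oligodendrocyte markers 7023 to 8093 CPM over all sections. All 13 mitochondrially encoded genes had values below 0 and none was called. The part of these cells and transcripts in the values of the 9 genes was not tested.

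**Figure D5:**
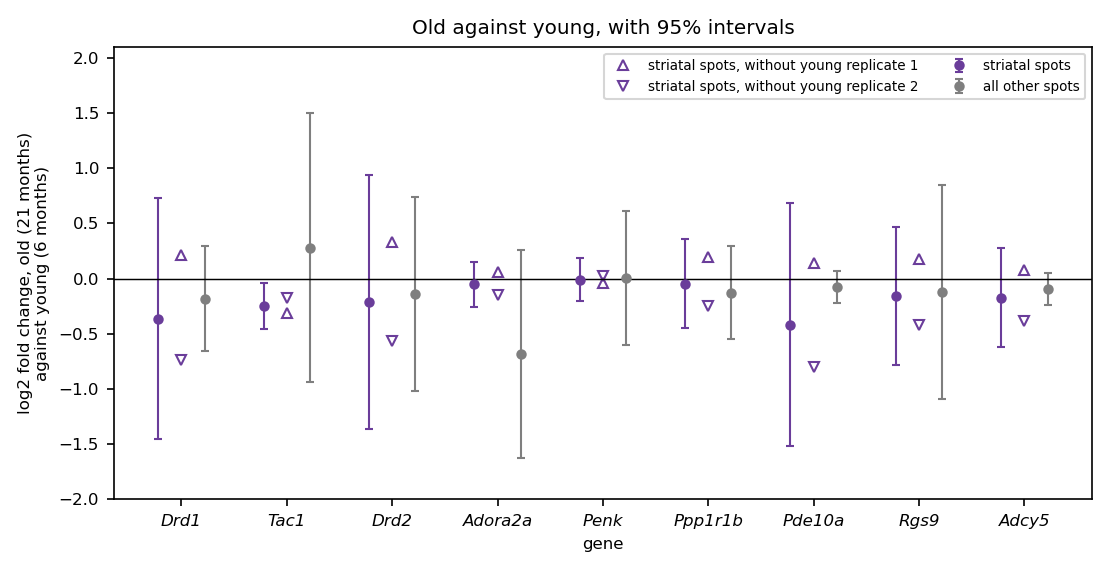
Log2 fold change of each gene for old against young with 95% intervals, in striatal spots (purple) and in all other spots (grey), from edgeR; open triangles give the striatal value without young 1 (upward) or young 2 (downward). All filled striatal intervals except that of Tac1 include 0, and the triangles of Drd1 lie at 0.21 and -0.74.

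Outside striatum and in whole sections no member was called at any age contrast by edgeR. For old against young, 0.154% of 17568 genes were called outside striatum and 0.164% of 17673 in whole sections, and for middle against young 0.0285% and 0.0679%, with 0 of 9 members in each. For old against middle 0 genes were called in either, with 325 and 361 at an unadjusted p under 0.05. The old against young log2 fold changes ran from -0.68 (Adora2a) to 0.28 (Tac1) outside and from -0.44 to -0.03 in whole sections. The difference of the age change between striatal and other spots was tested by itself as an interaction. Of 16914 genes 0.0177% were called and 0 of 9 members, with values from -0.49 ± 0.48 for Tac1 to 0.63 ± 0.47 for Adora2a (edgeR, adjusted p = 1 for all 9). Leaving out young 2 called Pde10a (-0.71, adjusted p = 2.07e-11) and Adcy5 (-0.30, adjusted p = 0.0497), with 247 genes called in all. With the finer grouping Adora2a was called (0.81, adjusted p = 3.28e-04), with 5 genes called in all. In that grouping the 200 spots led by Wfs1 count as outside striatum. Adora2a was there at 138 and 168 CPM in young and 135 and 66.5 CPM in old sections. Outside striatum in the main grouping it was at 1.59 to 4.35 CPM. The part of the spots led by Wfs1 in the called value was not tested.

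The balance of the pathways was followed as the log2 ratio of direct (Drd1 and Tac1) to indirect (Drd2, Adora2a and Penk) UMIs. It sets captured molecules of different genes against each other, so only its course over sections is read. In striatal spots it was -1.89 in young 1, -1.96 in young 2, -2.08 in middle 1, -1.96 in middle 2, -2.12 in old 1 and -2.21 in old 2. The means were -1.92 ± 0.05 (SD, n = 2) in young, -2.02 ± 0.08 in middle and -2.17 ± 0.06 in old sections, and both old sections lay below all others. No test is given for this ratio, as it is a score over chosen genes. Tac1 to Penk had the same order of means (-2.03 ± 0.05, -2.13 ± 0.10 and -2.27 ± 0.09), though middle 1 and old 1 were both at -2.20, and these genes supply most of the UMIs in the sums. Drd1 to Drd2 did not: it was 0.07 and 0.02 in young, -0.15 and -0.29 in middle and 0.04 and -0.20 in old sections, so young and old overlapped. With the finer grouping the direct to indirect ratio was -1.74 and -1.74 in young, -1.91 and -1.83 in middle and -1.88 and -2.23 in old sections, so that old 1 lay above middle 1. Outside striatum, where other neurons supply Tac1 and Penk, the ratio ran from -1.14 to -0.68 and was highest in old 2.

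The wider pathway was covered by 9 lists of 109 different genes, and of the 98 tested in striatal spots none was called at any age contrast by edgeR's quasi-likelihood test (lowest Benjamini-Hochberg adjusted p = 0.337). For old against young, 15 of the 98 had an unadjusted p under 0.05, beside 1116 of 12740 genes. Of 19 other receptors, 9 were higher in striatal than in other spots in all 6 sections. By the same count, 12 of 13 mitochondrially encoded genes, 7 of 8 microglia markers and 0 of 8 cortical excitatory markers were higher. The share over all genes is not given, so these counts and those below do not by themselves set a list apart. Grm5, a glutamate receptor, was at 173 CPM inside and 82.5 CPM outside. Cnr1, the cannabinoid receptor, was at 95.5 and 86.9 CPM and higher inside in 4 of 6 sections. For old against young the median log2 fold change of the 12 receptors tested was -0.20, with 2 above 0 and 10 below.

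G proteins, cyclases and cAMP effectors were higher in striatal spots in all sections for 8 of 22 genes. Gng7, a G protein subunit that works with Adcy5, was at 387 CPM inside and 42.8 outside, whereas Gnas was lower inside, at 749 against 1870 CPM, and Gnao1 was at 478 against 428 CPM. The median age value of the 22 was 0.02, with 12 above 0. Of 10 phosphodiesterases 7 were higher in striatal spots, led by Pde1b (711 against 104 CPM), Pde2a (337 against 165) and Pde4b (98.8 against 67.6), and the median age value was -0.10. Of 10 regulators of G protein signalling 4 were higher in all sections, among them Rgs2 (169.5 against 60.9 CPM). Rgs4 (300.4 against 235 CPM) and Rgs7bp (204 against 162 CPM) were higher inside in 5 of 6 sections, and the median of the 9 tested was -0.14, with 8 below 0. Among 15 phosphatases and their regulators 8 were higher, with Ppp3ca, a calcineurin subunit, at 1843 against 997 CPM Arpp21 at 697 against 177 and Arpp19 at 695 against 335, and the median was -0.09, with 13 below 0.

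Of 14 genes of dopamine and adenosine turnover 4 were higher in striatal spots in all sections. Adk, adenosine kinase, was at 76.0 against 63.3 CPM, while Slc29a1, a nucleoside transporter, was at 27.1 against 24.0. Of 12 neuropeptide and processing genes, 2 were higher in striatal spots in all sections. Cpe, a peptide-processing enzyme, was at 1754 against 1937 CPM, Pcsk1n at 1496 against 1650 and Sst, somatostatin, at 404 against 349. The median age value of the 12 was 0.13, with 9 above 0. Of the pathway companions, Pdyn stood at 213 against 21.6 CPM and Gpr6 at 63.8 against 1.82 CPM, the latter 35.1-fold higher inside. Slc35d3 was at 48.5 against 2.3 CPM and Sfxn1 at 46.3 against 51.6, and Sp9 at 36.2 against 5.2 and Plxdc1 at 18.0 against 33.2. Median age values were -0.13 for the 5 direct and 0.05 for the 4 indirect companions tested.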

How the data were processed

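Visium libraries of 6 sections were deposited by the authors as unnormalized UMI counts of each gene in each spot; the headers name Space Ranger 1.3.1, while the submitters' processing notes list 3.1 and mm10. Spots with at least 500 UMIs were kept (2 left out). Counts scaled to 10000 per spot and logged, 2000 variable genes without the 9 members, 30 components, 20 neighbours and Leiden clustering (leidenalg 0.10.2, resolution 0.8) gave 25 groups, of which 18 took a region name from marker lists (at least 3 markers in the first 50 leading genes, 1 in the first 10, and 2 times the next region). Sums per section were tested with edgeR 4.0.16 (quasi-likelihood, TMM, filterByExpr, R 4.3.3) with 3 residual degrees of freedom, tested on simulated data, with Benjamini-Hochberg adjustment and a threshold of 0.05. Section totals were 60938938 to 77557934 UMIs. Named genes are the 9 members, list genes past the threshold, the 3 genes with the highest striatal CPM per list and the 3 most alike per member; a few genes that meet this rule are not reported here. Members and lists were chosen with earlier results of these data known. The alternatives were DESeq2 1.42.0, other size factors and filters, slide or replicate block, thinning, other definitions of striatum and each section left out. Visium barcodes are reused, so sections shared 80.9% to 98.9% of those of the smaller. Same-numbered sections did not deviate together (r = -0.10, -0.03 and 0.05), so numbers pair nothing.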

Additional observations from a re-analysis of the deposited data

How the results depend on the processing

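No member was called in striatal spots by edgeR with all sections, and this held for DESeq2, RLE factors, no filter, thinning and the slide block; leaving out 1 section called 0 to 2 members for old against young, 0 to 5 for middle against young, 0 to 3 for old against middle and 0 to 2 for the interaction. Except where stated, the cause was not tested. Numbers of genes called over all genes moved more. Without a section they ran from 7 to 389 for old against young, 4 to 301 for middle against young and 0 to 83 for old against middle in striatal spots, 5 to 77 outside, 6 to 75 in whole sections and 0 to 247 for the interaction. With no filter on low counts, where more genes are tested, they were 108, 43, 40, 105, 113 and 16 in that order. DESeq2 called 152 outside, 194 in whole sections and 1 for the interaction. The slide block called 5 for middle against young in striatal spots, 6 outside and 7 in whole sections, with Drd1 at -0.042 and Penk at -0.022 for middle against young. With the replicate block 10 genes were called for old against young in striatal spots in place of 12, and 7 in place of 8 for middle against young, with no member among them.

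Other definitions of striatum turned small values around. At resolution 1.2, 28 genes were called for old against young and 5 for the interaction, 1 of them a member; Adora2a was at 0.12 for old against young and 0.045 for old against middle, Penk at 0.043 for old against young, -0.075 for middle against young and 0.12 for old against middle, and Drd1 at -0.0097 for middle against young. The interaction there was 0.16 for Drd2, 0.094 for Penk and 0.045 for Rgs9, the mean direct to indirect ratio -1.89 and the mean r across pathways -0.096. In the core of striatum, the 50% of a section's striatal spots with the largest share of striatal markers, old against young was 0.068 for Drd2, 0.16 for Adora2a, 0.13 for Penk and 0.058 for Ppp1r1b, Penk was at -0.079 for middle against young and 0.21 for old against middle, and Adora2a at 0.14 for old against middle. The interaction there called 6 genes and was 0.17 for Drd1, 0.49 for Drd2, 0.27 for Penk, 0.23 for Rgs9 and 0.015 for Adcy5, the median over members of the share of UMIs in those spots was 34.4%, and the mean r was 0.38 within and -0.21 across pathways. With an equal number of spots chosen over all sections by marker share alone, old against young was 0.017 for Adora2a and 0.00269 for Ppp1r1b, Penk was at -0.038 for middle against young and 0.035 for old against middle, and the interaction 0.0065 for Drd2 and 0.017 for Rgs9. With genes scaled over all sections Penk was at 0.015 for old against young. With plain CPM, added after the data were seen, old against young was 0.018 for Adora2a, 0.051 for Penk and 0.023 for Ppp1r1b, and old against middle 0.040 for Penk. With marker share and depth taken out, also added, the mean r was 0.37 within and -0.30 across pathways.

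Without a section, old against young ran from -0.74 to 0.21 for Drd1, -0.57 to 0.33 for Drd2, -0.15 to 0.056 for Adora2a, -0.043 to 0.023 for Penk, -0.25 to 0.19 for Ppp1r1b, -0.81 to 0.14 for Pde10a, -0.42 to 0.18 for Rgs9 and -0.38 to 0.078 for Adcy5. Middle against young ran from -0.33 to 0.62 for Drd1, -0.027 to 0.87 for Drd2, -0.026 to 0.18 for Adora2a, -0.035 to 0.066 for Penk, -0.21 to 0.031 for Tac1, -0.22 to 0.73 for Pde10a and -0.015 to 0.45 for Adcy5, and old against middle from -0.076 to 0.026 for Penk. The interaction ran from -0.31 to 0.040 for Drd1, -0.19 to 0.13 for Drd2, -0.25 to 0.18 for Penk, -0.99 to 0.051 for Tac1, -0.0078 to 0.15 for Ppp1r1b, -0.71 to 0.16 for Pde10a, -0.19 to 0.034 for Rgs9 and -0.30 to 0.14 for Adcy5. Tac1 stayed between -0.31 and -0.18 for old against young under all alternatives. With 2 animals per age, the spread between animals limits the precision of these values.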
